A study of Homo sapiens with 34 samples.

Results

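The genes described here are 9 that sense or move calcium and phosphate, or act as hormones of that system, followed through every group of a study of prostate cells grown on a bone-like mineral. They are a list of names, with no threshold on their values, and are CASR, SLC20A1, SLC20A2, XPR1, STC1, STC2, TRPM8, TRPV6 and ATP2B4, 9 of the 26336 genes in the count table. RNA was sequenced from 4 human prostate lines that grew either on plastic dishes or on amorphous calcium phosphate (ACP), a calcium mineral laid down as a bone-like surface. The RWPE line stands for prostate epithelium that forms no tumours, LNCaP was started from a lymph node metastasis, and VCaP and MDAPCa2a from metastases to bone. Each line had its own control medium (keratinocyte serum-free medium for RWPE, media with fetal bovine serum for the others). Stripped medium had serum treated with charcoal and dextran, which removes steroid hormones. In androgen medium, stripped serum was supplemented with androgen at a labelled 100 mM; titles name it DHT and treatment labels testosterone, and the word androgen stands for either below.

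The 34 libraries formed 17 groups. LNCaP and VCaP had plastic in control and stripped medium and ACP in control, stripped and androgen medium. MDAPCa2a had the same groups except ACP in control medium, and its plastic, but not its ACP, carried a protein coating. RWPE had plastic control, ACP control and ACP androgen only, and how its androgen medium related to stripped serum is not given by its labels. There were 2 libraries per group, but 3 of RWPE on ACP with androgen and 1 of VCaP on plastic in stripped medium, which has no SD and no replicate. Plastic control libraries are labelled as continuous culture and all others as day 4. The labels do not say that replicates came from separate cultures, so p-values measure only the spread between these libraries, which may be technical.

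Cells keep free calcium in the cytosol far below that outside, by channels that let it in along the gradient and ATP-driven pumps that put it back out. Phosphate enters with sodium through the SLC20 carriers, which are present in most tissues, and leaves through XPR1, the phosphate exporter of animal cells. CASR is the receptor by which parathyroid and kidney cells read outside calcium, the stanniocalcins STC1 and STC2 are secreted glycoproteins first known for calcium control in fish, and in prostate the cold- and menthol-gated channel TRPM8 and the calcium-selective channel TRPV6 are known as genes of luminal and cancer cells, TRPM8 as one that responds to androgen.

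Upstream sequence of 3 members is shown because results below turn on them. TRPM8 and TRPV6 each separate some of the lines. ATP2B4 changed with androgen in VCaP and differed between androgen and control medium in RWPE. RefSeq (GRCh38.p14) promoter windows matched 7 of the 9 members; SLC20A2 and STC1 had no entry. Each line below gives the 250 bases that end just before an annotated start, 5′ to 3′ on the gene's strand, with the letters of 3 motifs in capitals: AGAACA or its reverse complement TGTTCT (a half-site of the androgen receptor motif), TATAAA (the TATA box) and GGGCGG (a GC box), each searched on both strands. The windows are chr2:233917123-233917372 on the plus strand for TRPM8 (the most upstream of 6 annotated starts; the gene spans chr2:233917373-234019522), chr7:142885746-142885995 on the minus strand for TRPV6 and chr1:203626582-203626831 on the plus strand for ATP2B4.
TRPM8: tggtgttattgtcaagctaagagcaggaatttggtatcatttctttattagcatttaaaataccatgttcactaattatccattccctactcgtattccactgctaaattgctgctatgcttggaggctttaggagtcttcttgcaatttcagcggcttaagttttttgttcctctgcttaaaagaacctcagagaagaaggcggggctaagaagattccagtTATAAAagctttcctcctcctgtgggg
TRPV6: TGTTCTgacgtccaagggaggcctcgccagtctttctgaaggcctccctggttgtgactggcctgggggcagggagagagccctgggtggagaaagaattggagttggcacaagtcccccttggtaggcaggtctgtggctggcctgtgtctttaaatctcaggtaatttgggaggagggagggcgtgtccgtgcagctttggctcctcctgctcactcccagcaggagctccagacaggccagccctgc
ATP2B4: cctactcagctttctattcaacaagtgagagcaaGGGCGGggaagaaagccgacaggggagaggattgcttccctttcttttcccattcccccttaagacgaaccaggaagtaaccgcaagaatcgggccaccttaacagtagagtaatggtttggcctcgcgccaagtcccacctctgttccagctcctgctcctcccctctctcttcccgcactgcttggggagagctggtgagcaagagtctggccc

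The TRPM8 sequence held 1 TATAAA and no AGAACA, the TRPV6 sequence held 1 half-site at its upstream end, and the ATP2B4 sequence held 1 GGGCGG and no half-site. In windows of 300 bases (250 before to 50 after the start) AGAACA on either strand occurred in 14.8% of 35116 windows of all genes, TATAAA in 11.5% and GGGCGG in 45%. The paired form (AGAACA, any 3 bases, then TGTTCT) occurred in 0.00285% of them and in no window of a member. Of the 6 TRPM8 windows, 1 held a half-site, the window furthest downstream. The share of G and C was 77.7% in the window of SLC20A1, 64% in STC2, 60% in XPR1, 59.3% in TRPV6, 53.3% in ATP2B4 and 46% in CASR. The first TRPM8 window had 41% and its other windows 40% to 55.7%. The median over all windows was 58.7%. These are letters found in a window and nothing measured here shows a factor bound to them.

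Counts per library ran from 15.4 M to 44.8 M, and the 8 plastic control libraries were among the deeper ones. Markers of RWPE and VCaP were as labelled, with CPM standing for reads of a gene scaled to a common library size. The basal markers KRT5, TP63 and KRT14 summed to 3350 to 15700 CPM in RWPE and at most 37.2 elsewhere. The luminal marker KLK3 was 5.94 to 19.1 CPM in RWPE and at least 36.1 in the cancer lines. ERG, which marks VCaP, was 126 to 882 CPM there and at most 2.32 elsewhere. No marker particular to LNCaP or MDAPCa2a was checked. Outside VCaP, all 9 transcripts of a liver list were found in the RWPE and LNCaP plastic control libraries and 8 of 9 in those of MDAPCa2a, at a sum of 10.2 to 24.5 CPM, against 0.445 to 7.67 in the other libraries of those lines. In VCaP the list lay between 82.8 and 174 CPM in plastic control and 49.9 and 384 in the other groups. Plastic control thus differed from the other groups of its line in labelled time and depth, and outside VCaP also in these transcripts, so in comparisons with it they cannot be told apart from the surface or the medium. Lymphoid markers summed to at most 0.194 CPM and kidney markers to at most 0.102 CPM in any library.

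**Figure D1:**
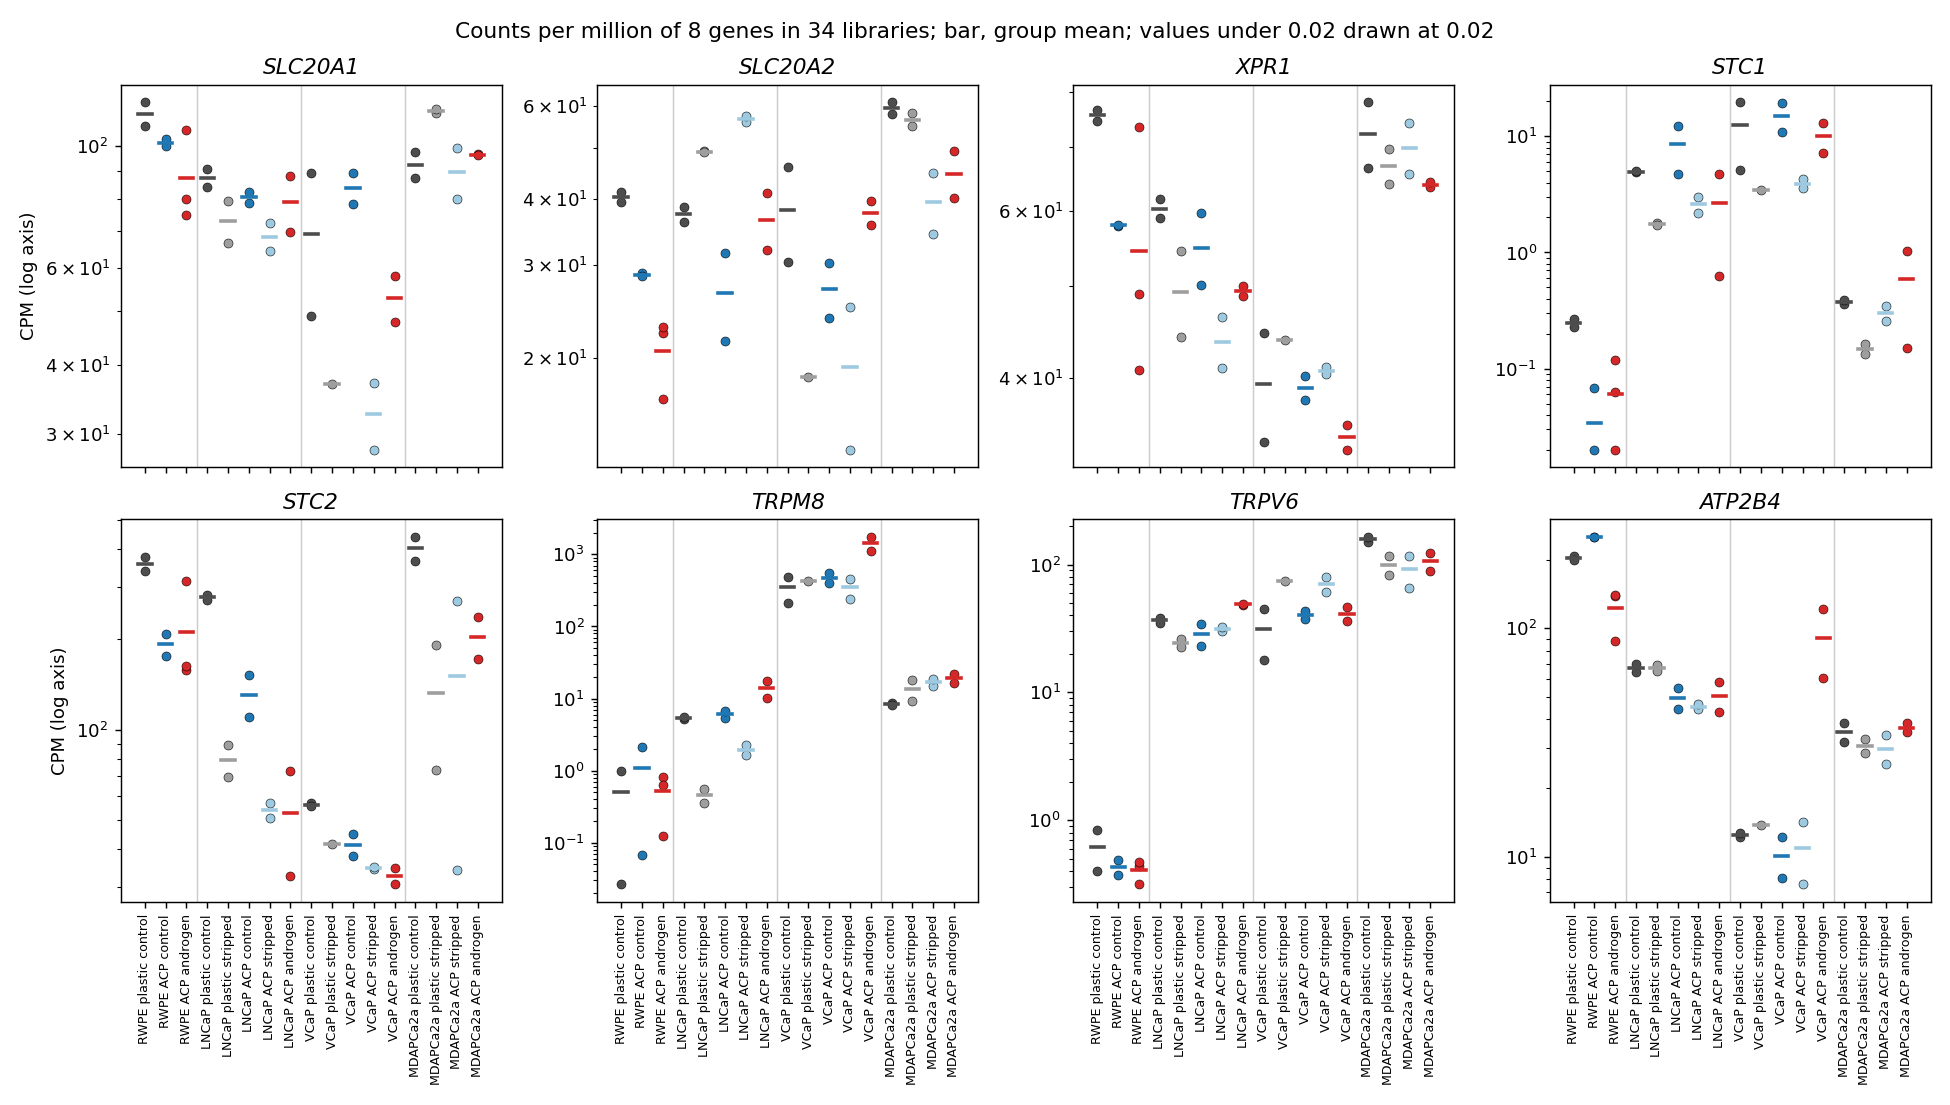
CPM (log axis) of the 8 detected members in each of 34 libraries, grouped on the x axis by line, surface and medium; dots are libraries and bars group means. Group means of TRPM8 and TRPV6 range 3130-fold and 388-fold, against 3.55-fold, 3.24-fold and 2.18-fold for SLC20A1, SLC20A2 and XPR1.

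The genes differed in how far their levels ranged. The phosphate transporters were present in all lines: the ratio of the highest to the lowest group mean CPM was 3.55 for SLC20A1, 3.24 for SLC20A2 and 2.18 for XPR1. STC2 and ATP2B4 ranged 12.3-fold and 24.8-fold, and TRPV6 and TRPM8 ranged 388-fold and 3130-fold. No ratio is given for STC1, whose lowest group, RWPE on ACP in control medium, had 2 reads in all. CASR was at or near 0 throughout. Per length of exon (median RPKM, which is CPM per kilobase, over a line's libraries), STC2 at 38.9 and SLC20A1 at 30.4 were highest in RWPE, SLC20A1 at 23.4 and STC2 at 15.2 in LNCaP, TRPM8 at 76.7 in VCaP, and STC2 at 40 and TRPV6 at 39.8 in MDAPCa2a. In bulk RNA, fewer cells with a transcript and less of it per cell cannot be told apart.

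Genes were tested in the authors' counts, within each line and across lines, and a gene was called at a Benjamini-Hochberg adjusted p under 0.05 over all genes tested. CASR passed the low-count filter nowhere, and STC1 did not in the fits within RWPE and MDAPCa2a, so 7 members were tested in those 2 lines and 8 elsewhere. On ACP against plastic in control medium, 0 of 7 members were called in RWPE (4.16% of all genes; 2 members at an unadjusted p under 0.05, 1 by DESeq2), 1 of 8 in LNCaP (12.6% of genes) and 0 of 8 in VCaP (0.0448% of genes; 0 unadjusted, 0 by DESeq2). In stripped medium on ACP against plastic, 1 of 8 was called in LNCaP (6.12% of genes), 0 of 8 in VCaP (0% of genes; 0 unadjusted, 0 by DESeq2) and 0 of 7 in MDAPCa2a (0.00734% of genes; 1 unadjusted, 0 by DESeq2). The calls in LNCaP were STC2, lower on ACP in control medium, and TRPM8, higher on ACP in stripped medium. The median log2 difference of the members in these 6 comparisons lay between -0.36 (RWPE, where that of all genes was 0.03) and 0.18 (VCaP in control medium, beside -0.02 for all genes).

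Stripped against control medium gave member calls in LNCaP and in no other line. On plastic, 2 of 8 members were called in LNCaP (9.45% of genes), 0 of 8 in VCaP (0.89% of genes; 4 unadjusted, 1 by DESeq2) and 0 of 7 in MDAPCa2a (1.58% of genes; 3 unadjusted, 0 by DESeq2). On ACP, 3 of 8 were called in LNCaP (5.37% of genes) and 0 of 8 in VCaP (0.82% of genes; 3 unadjusted, 2 by DESeq2). Whether the surface altered the response to stripped medium in LNCaP was tested as an interaction, with 0 of 8 members called (0.307% of genes; 3 unadjusted, 1 by DESeq2). The members' median log2 difference for stripped medium was -0.39 on plastic and -0.30 on ACP in LNCaP, against -0.01 for all genes in both.

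Androgen against stripped medium on ACP gave 1 call of 8 in LNCaP (7.73% of genes), 2 of 8 in VCaP (17.5% of genes) and 0 of 7 in MDAPCa2a (0% of genes; 0 unadjusted, 0 by DESeq2). Androgen against control medium on ACP, a comparison in which serum and hormone both differ, gave 1 of 7 in RWPE (19.1% of genes), 3 of 8 in LNCaP (15.1% of genes) and 1 of 8 in VCaP (5.99% of genes). It shares its androgen libraries with the comparison against stripped medium. The calls were TRPM8 in LNCaP and VCaP, ATP2B4 in VCaP and RWPE with opposite signs, and STC2 and TRPV6 in LNCaP. These shares of called members lie on both sides of the shares of all genes, and nothing is read from them about the genes as a set. The members' median log2 difference for androgen against stripped medium was 0.84 in VCaP, 0.15 in LNCaP and 0.14 in MDAPCa2a, beside medians of -0.03, -0.01 and -0.01 over all genes.

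**Figure D2:**
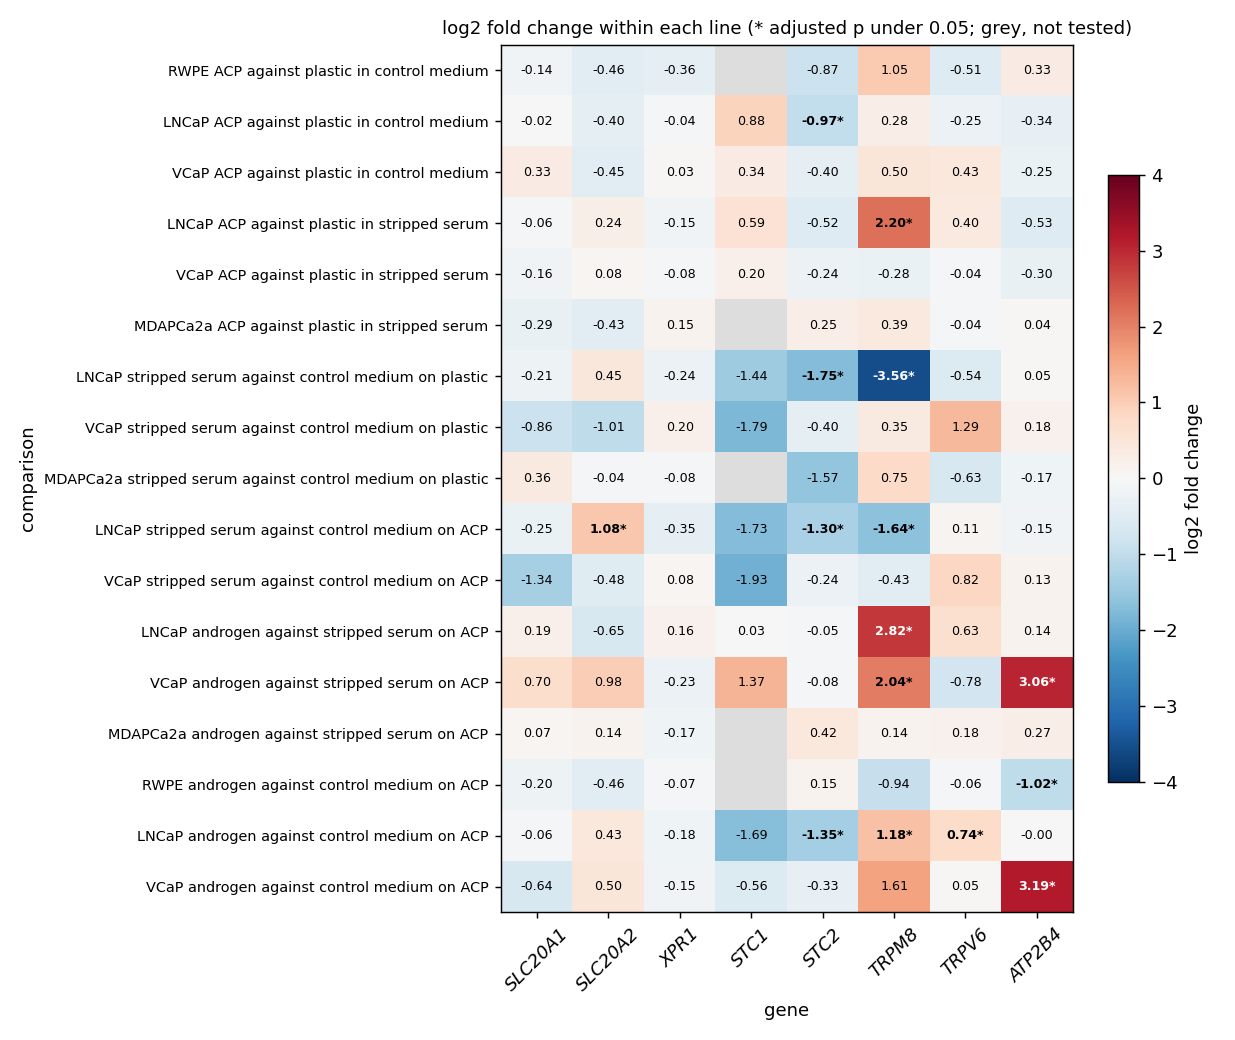
Log2 fold changes of 8 members (columns) in 17 comparisons within lines (rows); the colour scale runs from -4 to 4 and an asterisk marks an adjusted p under 0.05. Most calls lie in the LNCaP rows, and TRPM8 and ATP2B4 carry the largest values.

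CASR, the calcium-sensing receptor, had 0 to 4 reads in any library. Its group totals were 5 reads in LNCaP on ACP with androgen, 4 in LNCaP on plastic in control medium, 3 in VCaP on ACP with androgen and at most 2 elsewhere, with 0 in 8 groups. A count of 0 in both libraries of RWPE on ACP in control medium allows up to 0.0576 CPM (3 counts over the group), a limit that covers counting error only. On ACP as on plastic it was too low to test, and no difference was detectable at this depth.

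SLC20A1, the sodium-phosphate carrier also called PiT-1, had its lowest values in VCaP in stripped medium. Its CPM there was 36.8 on plastic in stripped medium and 28.0 and 37.0 on ACP in stripped medium, against 78.3 and 89.0 on ACP in control medium and 47.9 and 58.0 with androgen. The control, androgen and stripped libraries on ACP did not overlap. The log2 difference of stripped against control medium on ACP was -1.34 (SE 0.28, adjusted p = 0.0562), short of the threshold, and that of androgen against stripped was 0.70 (SE 0.28, adjusted p = 0.105). In LNCaP the same comparisons gave -0.25 (adjusted p = 0.415) and 0.19 (adjusted p = 0.537). On plastic in control medium the VCaP libraries stood at 49.0 and 89.3 CPM, both above the stripped libraries on either surface. The lower of them lay within the range of the androgen libraries on ACP. In the other lines the gene lay between 64.3 and 119.9 CPM in every library, and no within-line comparison of it passed the test in any line.

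SLC20A2, the carrier also called PiT-2, was higher in stripped than in control medium on ACP in LNCaP. Its CPM was 21.5 and 31.6 in control medium, 56.0 and 57.4 in stripped medium and 41.0 and 32 with androgen, so that androgen libraries lay between those of the other media. Stripped against control was 2.11-fold higher (log2 1.08, SE 0.19, adjusted p = 0.00845), a call lost when either stripped library was left out (log2 0.84 at the lowest), while androgen against stripped was at log2 -0.65 (SE 0.19, adjusted p = 0.0585). VCaP showed the opposite order of androgen and stripped medium on ACP. It had 25 and 13.4 CPM in stripped medium and 35.7 and 39.7 with androgen (log2 0.98, SE 0.32, adjusted p = 0.0627). Its control libraries on ACP, at 30.3 and 23.8 CPM, overlapped the stripped ones and lay below those with androgen. On plastic in LNCaP stripped medium gave 49.4 and 49.1 CPM against 38.7 and 36.2 (log2 0.45, adjusted p = 0.164). In RWPE the gene stood at 39.5 and 41.2 on plastic, 28.9 and 28.6 on ACP and 16.7, 22.3 and 22.9 on ACP with androgen, and neither step passed the test (adjusted p = 0.17 and 0.0796). Exons of SLC20A2 share 265 bases with SMIM19 on the other strand, and no source used here says whether reads were counted by strand.

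XPR1, the exporter, varied least of the 8 detected members. Its group means ran from 34.7 CPM in VCaP on ACP with androgen to 75.6 in RWPE on plastic, and no within-line comparison passed the test. The largest within-line log2 difference was -0.36 in RWPE on ACP against plastic (74.5 and 76.6 CPM on plastic, 57.9 and 58.0 on ACP, SE 0.24, adjusted p = 0.401). RWPE libraries with androgen ranged from 40.8 to 73.4 CPM, wider than the gap between surfaces.

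STC1 was a transcript of VCaP and LNCaP. VCaP libraries held 3.46 to 19.6 CPM and LNCaP libraries 0.622 to 12.3, while MDAPCa2a had 0.133 to 1.03 CPM (3 to 18 reads) and RWPE 0 to 0.265 CPM (at most 10 reads). In both expressing lines stripped medium had the lower values: on ACP 4.76 and 12.3 CPM in control medium against 2.17 and 3.01 in LNCaP, and 19.4 and 10.8 against 3.56 and 4.26 in VCaP. Libraries did not overlap in either case. The log2 differences were -1.73 (SE 0.65, adjusted p = 0.154) and -1.93 (SE 0.58, adjusted p = 0.139), so neither passed the test at this spread. With androgen VCaP had 13.2 and 7.14 CPM (log2 1.37 against stripped, adjusted p = 0.123) and LNCaP had 0.622 and 4.73, which lie on both sides of the stripped values.

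STC2, the other stanniocalcin, was lower in stripped than in control medium in LNCaP, and its androgen libraries lay around the stripped ones. LNCaP libraries had 281 and 271 CPM on plastic in control medium, 89.3 and 69.7 on plastic in stripped medium, 110 and 152 on ACP in control medium, 50.7 and 57.1 on ACP in stripped medium and 32.7 and 73.0 on ACP with androgen. In stripped medium STC2 was 3.36-fold lower on plastic (log2 -1.75, SE 0.29, adjusted p = 0.00425, called without each of 4 libraries), where labelled time and depth also differed. On ACP it was 2.46-fold lower (log2 -1.30, SE 0.29, adjusted p = 0.0261, lost without either stripped library or control replicate 2). Androgen against stripped medium was at log2 -0.05 (SE 0.29, adjusted p = 0.938), and androgen against control medium stayed 2.54-fold lower (log2 -1.35, SE 0.29, adjusted p = 0.0116, called without each of 4 libraries).

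On ACP against plastic in control medium STC2 was 1.96-fold lower in LNCaP (log2 -0.97, SE 0.29, adjusted p = 0.0477), a call that held without ACP replicate 2 and was lost without ACP replicate 1 (log2 between -1.22 and -0.80 over the 4 omissions), without plastic replicate 1 and without plastic replicate 2. RWPE had 376 and 339 CPM on plastic and 208 and 176 on ACP, with no overlap (log2 -0.87, SE 0.30, adjusted p = 0.126). VCaP had low and steady values, from 30.6 to 57.0 CPM over its 9 libraries. In MDAPCa2a the replicates of stripped medium lay far apart, at 192 and 73.4 CPM on plastic and 34.1 and 268 on ACP, and both plastic control libraries, at 440 and 364, were above them (log2 -1.57 for stripped against control on plastic, SE 0.74, adjusted p = 0.338). The plastic control libraries were the highest of each line for STC2 in all 4 lines, and they differ from the rest in labelled time and depth.

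TRPM8 was a VCaP transcript that rose with androgen. VCaP libraries on ACP held 401 and 555 CPM in control medium, 244 and 456 in stripped medium and 1759 and 1123 with androgen, and both androgen libraries lay above all 7 others of the line. Androgen against stripped medium was 4.11-fold higher (log2 2.04, SE 0.43, adjusted p = 0.0121), a call lost without androgen replicate 1 or stripped replicate 1 (log2 between 1.70 and 2.56 over 4 omissions). Against control medium the log2 difference was 1.61 (SE 0.42, adjusted p = 0.0525). Stripped against control medium on ACP was within the replicate spread in VCaP (log2 -0.43, adjusted p = 0.631). Among the same ACP libraries the fibroblast list (COL1A1, COL1A2, DCN and LUM, 3 of 4 detected in stripped and all 4 in androgen libraries) summed to 40.3 to 161 CPM in stripped medium and 7.18 to 8.1 with androgen, and the liver list to 324 to 384 against 49.9 to 113 CPM. The luminal marker KLK3 was 36.1 and 120 CPM in stripped medium and 3450 and 840 with androgen. The part of these in the VCaP androgen results for TRPM8 and ATP2B4 was not tested.

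In LNCaP TRPM8 was far lower and changed with both stripping and androgen. Its CPM was 5.13 and 5.56 on plastic in control medium (243 and 252 reads) and 0.359 and 0.561 in stripped medium (14 and 11 reads). On plastic TRPM8 was thus 11.8-fold lower in stripped medium (log2 -3.56, SE 0.39, adjusted p = 4.55e-04, called without each of 4 libraries), where labelled time and depth also differed. On ACP it was 5.36 and 6.72 in control medium, 1.65 and 2.28 in stripped medium and 17.7 and 10.3 with androgen, with no overlap between the 3 media. Stripped medium lowered it 3.11-fold on ACP (log2 -1.64, SE 0.32, adjusted p = 0.015, lost when either stripped library was left out). Androgen raised it 7.06-fold over stripped medium (log2 2.82, SE 0.33, adjusted p = 7.45e-04, called without each of 4 libraries) and 2.27-fold over control medium (log2 1.18, SE 0.30, adjusted p = 0.024, lost without androgen replicate 1 or control replicate 1).

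In stripped medium TRPM8 was 4.58-fold higher on ACP than on plastic in LNCaP (log2 2.20, SE 0.41, adjusted p = 0.0134), a call lost without ACP replicate 2 or plastic replicate 1 (log2 1.76 to 2.52). In control medium the surfaces did not differ beyond the spread (log2 0.28, adjusted p = 0.567), and the interaction of surface and medium was at log2 1.92 (SE 0.51, adjusted p = 0.202), so a difference of the surface effect between media was not shown. The luminal marker KLK3 moved in the same libraries, from 135 and 124 CPM on plastic to 1560 and 1780 on ACP in stripped medium, beside 2140 to 3240 in the control groups and 3250 and 3550 on ACP with androgen. Its part in the TRPM8 differences was not tested.

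MDAPCa2a kept TRPM8 between 8.11 and 21.6 CPM. Androgen gave 16.6 and 21.6 CPM against 15.1 and 18.7 in stripped medium on ACP, overlapping values (log2 0.14, SE 0.30, adjusted p = 0.97). Stripped medium on plastic had 9.39 and 18.0 CPM against 8.57 and 8.11 (log2 0.75, SE 0.30, adjusted p = 0.264). RWPE had 1 and 39 reads on plastic, 2 and 43 on ACP and 2, 14 and 14 with androgen, so its replicates differed by more than any groups did.

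Low TRPM8 counts outside VCaP were set beside ERG, a gene that of these lines only VCaP carries at a high level. As a percentage of the VCaP mean, TRPM8 was 0.00421% to 0.332% in RWPE libraries, where ERG was 0.0665% to 0.501%. In RWPE the TRPM8 percentage was below that of ERG in all 7 libraries, and the 39 and 43 reads came in the 2 libraries with the most ERG (1.8 and 1.56 CPM). In LNCaP and MDAPCa2a TRPM8 was above ERG in all 18 libraries, at 0.057% to 3.43% against 0% to 0.646%, and in LNCaP with androgen it was 2.8% and 1.64% against 0.183% and 0.164%. ERG in LNCaP also moved with the groups, from 0.051 and 0.0513 CPM on plastic in stripped medium to 1.44 and 2.32 on plastic in control medium and 0.656 and 0.588 on ACP with androgen. Exons of TRPM8 share 119 bases with an antisense gene, AC005538.1, which the count table does not list.

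**Figure D3:**
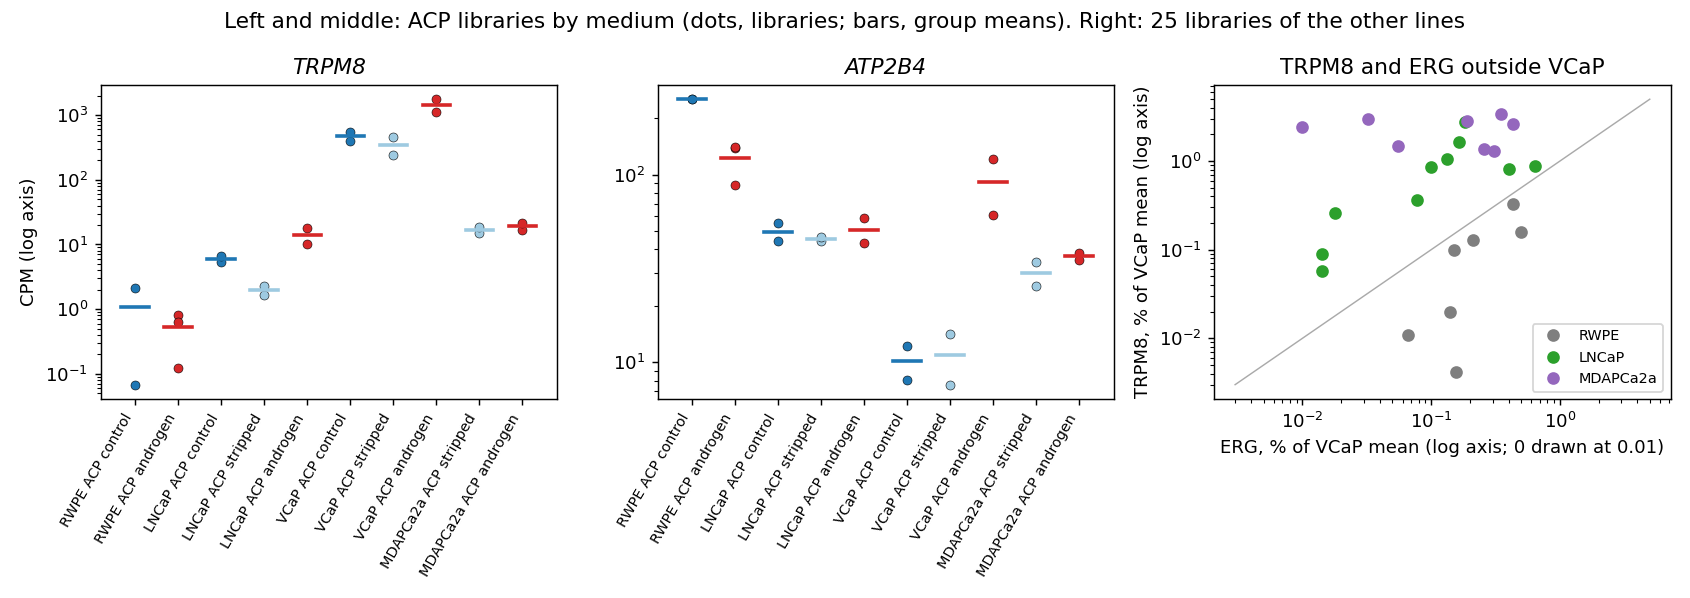
Left and middle, CPM (log axis) of TRPM8 and ATP2B4 in ACP libraries by line and medium, with dots for libraries and bars for group means. Right, TRPM8 against ERG in the 25 libraries of RWPE, LNCaP and MDAPCa2a, each as a percentage of its mean over VCaP libraries (log axes); all 7 RWPE libraries lie below the diagonal and all 18 others above it.

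TRPV6, an epithelial calcium-entry channel, was highest in MDAPCa2a and near 0 in RWPE. Libraries held 66.1 to 165 CPM in MDAPCa2a, 18.0 to 80.5 in VCaP, 22.5 to 49.5 in LNCaP and 0.316 to 0.834 (7 to 33 reads) in RWPE, the last at 0.277% to 0.732% of the MDAPCa2a mean, where the luminal marker KLK3 was at 0.0794% to 0.255%. In LNCaP the androgen libraries, at 48.2 and 49.5 CPM, were above the control libraries, at 23.2 and 34.3 (1.66-fold, log2 0.74, SE 0.18, adjusted p = 0.0191, lost without androgen replicate 1 or control replicate 1). Against stripped medium, at 30.3 and 32.3 CPM, the difference was log2 0.63 (SE 0.18, adjusted p = 0.0535). In VCaP the order of androgen and stripped medium was the other way on ACP. Stripped libraries had 80.5 and 61.3 CPM and androgen libraries 46.3 and 36.5, without overlap (log2 -0.78, SE 0.36, adjusted p = 0.152). The VCaP control libraries on ACP, at 43.6 and 37.6 CPM, overlapped those with androgen. TRPV6 shares 99 exon bases with an antisense gene, AC245427.1, that is not in the count table.

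ATP2B4 encodes PMCA4, a plasma membrane calcium pump that carries calcium out of the cell. In VCaP it had 12.2 and 12.7 CPM on plastic, 13.7 on plastic in stripped medium, 8.08 and 12.2 on ACP in control medium and 7.61 and 14.2 on ACP in stripped medium, but 121 and 60.8 on ACP with androgen. Both androgen libraries lay above the 7 others of the line, the highest of which had 14.2 CPM. Androgen raised it 8.31-fold over stripped medium (log2 3.06, SE 0.40, adjusted p = 0.00206) and 9.1-fold over control medium (log2 3.19, SE 0.40, adjusted p = 0.00373), and both calls held without each of their 4 libraries. In LNCaP androgen gave 43.2 and 58.3 CPM, around the 44.2 and 46.6 of stripped medium (log2 0.14, adjusted p = 0.639), and in MDAPCa2a 38.4 and 35.3 CPM against 25.6 and 34 (log2 0.27, adjusted p = 0.968).

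RWPE held the most ATP2B4, and there it was lower in androgen medium than in control medium. RWPE had no stripped group, so the androgen cannot be told apart from other differences between these media. Its CPM was 208 and 200 on plastic, 251 and 252 on ACP in control medium and 88.1, 138 and 140 on ACP with androgen, with no overlap between these groups. Androgen against control medium was 2.03-fold lower (log2 -1.02, SE 0.21, adjusted p = 0.0176), a call lost when either control library was left out (log2 -1.12 to -0.83 over 5 omissions). The basal marker sum, 12500 to 15700 CPM in the control libraries, was 3350 to 11000 in the androgen libraries, and its part in the difference was not tested. ACP against plastic was at log2 0.33 (SE 0.23, adjusted p = 0.418).

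Lines were compared in 2 settings, plastic in control medium and ACP with androgen. The second uses none of the plastic control libraries. Each line had its own control medium, serum-free for RWPE, and the labels do not say how the RWPE androgen medium related to stripped serum. In both settings a difference between RWPE and another line thus cannot be told apart from a difference of medium. On plastic, 4 of 8 members were called between LNCaP and RWPE (57.4% of genes), 7 between VCaP and RWPE (62.4%), 3 between MDAPCa2a and RWPE (56.7%), 4 between VCaP and LNCaP (52.6%), 4 between MDAPCa2a and LNCaP (40.2%) and 7 between VCaP and MDAPCa2a (52.4%). On ACP with androgen the counts were 6 (66.9%), 7 (67.4%), 5 (64%), 5 (56%), 3 (45.3%) and 7 (51.4%) in the same order. The members' shares lay above those of all genes in some pairs of lines and below them in others, and nothing is read from the counts.

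TRPM8 in VCaP exceeded RWPE by log2 9.40 (SE 0.84, adjusted p = 6.69e-10) on plastic and 11.37 (SE 0.76, adjusted p = 2.81e-12) on ACP with androgen, LNCaP by 6.03 and 6.69, and MDAPCa2a by 5.39 and 6.23, each called without each library. RWPE had 1 and 39 reads on plastic and 2, 14 and 14 on ACP with androgen. LNCaP and MDAPCa2a did not differ in it beyond the spread (log2 0.64 on plastic, adjusted p = 0.413, and 0.45 on ACP with androgen, adjusted p = 0.549). TRPV6 in MDAPCa2a exceeded RWPE by log2 7.99 and 8.04, LNCaP by 2.11 and 1.12, and VCaP minus MDAPCa2a was log2 -2.33 and -1.36, all called; without MDAPCa2a androgen replicate 2 the difference from LNCaP on ACP was not (log2 0.88). VCaP and LNCaP were not told apart in TRPV6 (log2 -0.22 and -0.24, adjusted p = 0.569 and 0.53). The order for TRPV6 was thus MDAPCa2a, then VCaP and LNCaP, then RWPE.

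ATP2B4 had a different order in each setting. On plastic VCaP was 16.3-fold below RWPE (log2 -4.03, SE 0.31, adjusted p = 6.64e-11), 5.39-fold below LNCaP (log2 -2.43, adjusted p = 2.03e-07), and 2.82-fold below MDAPCa2a (log2 -1.5, adjusted p = 1.12e-04). On ACP with androgen VCaP was not separated from RWPE (log2 -0.43, SE 0.26, adjusted p = 0.143), though it was called lower without VCaP replicate 1 (log2 -1.01), and it was 1.79-fold above LNCaP (log2 0.84, adjusted p = 0.0129, lost without LNCaP replicate 1 or VCaP replicate 1) and 2.47-fold above MDAPCa2a (log2 1.31, adjusted p = 4.54e-04). LNCaP and MDAPCa2a were below RWPE in both settings, at log2 -1.60 and -1.27 for LNCaP and -2.53 and -1.73 for MDAPCa2a.

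STC2 was lower in VCaP than in RWPE in both settings (log2 -2.66 and -2.70, adjusted p = 2.03e-04 and 1.03e-04), and LNCaP was lower than RWPE on ACP with androgen (log2 -2.0, adjusted p = 0.00151). On plastic the LNCaP difference was log2 -0.37 (adjusted p = 0.564), and the change between settings was not tested. STC1 was higher in VCaP and LNCaP than in RWPE (log2 5.63 and 4.30 on plastic, 7.42 and 5.50 on ACP with androgen), against RWPE libraries of 0 to 10 reads. SLC20A2 did not differ between VCaP or LNCaP and RWPE on plastic (log2 -0.08 and -0.11), while on ACP with androgen both were higher than RWPE (log2 0.87 and 0.82, adjusted p = 0.00132 and 0.0021), as was MDAPCa2a (log2 1.11, adjusted p = 1.04e-04). XPR1 and SLC20A1 were lower in VCaP than in RWPE in both settings, by log2 -0.94 and -0.65 for XPR1 and -0.72 and -0.72 for SLC20A1. Without RWPE androgen replicate 3 neither was called on ACP with androgen (log2 -0.28 for XPR1 and -0.46 for SLC20A1), and SLC20A1 was not called without VCaP replicate 1 in either setting.

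**Figure D4:**
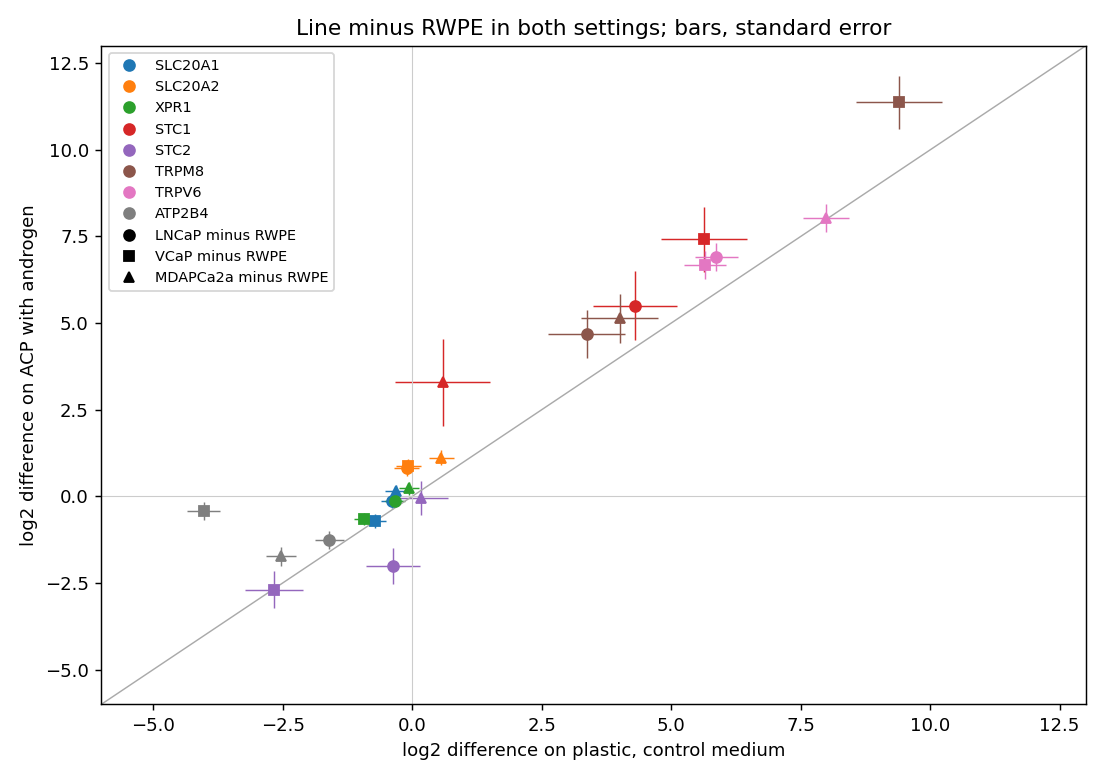
Log2 difference of LNCaP (circles), VCaP (squares) and MDAPCa2a (triangles) from RWPE, on plastic in control medium (x axis) and on ACP with androgen (y axis), with SE bars; colours are genes and the grey line marks equal values. TRPM8, TRPV6 and STC1 lie far to the upper right, and ATP2B4 in VCaP moves from -4.03 on the x axis to -0.43 on the y axis.

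Differences between lines in the androgen effect on ACP (androgen against stripped) were tested in the fit of all libraries. Between VCaP and LNCaP 3 of 8 members were called (10.9% of genes), between LNCaP and MDAPCa2a 0 of 8 (1.12% of genes; 2 unadjusted, 0 by DESeq2) and between VCaP and MDAPCa2a 1 of 8 (7.86% of genes). ATP2B4 responded more in VCaP than in LNCaP by log2 2.89 (SE 0.41, adjusted p = 1.11e-04) and than in MDAPCa2a by 2.75 (SE 0.41, adjusted p = 2.25e-04), and both calls held without each of 8 libraries. SLC20A2 differed by log2 1.61 between VCaP and LNCaP (SE 0.35, adjusted p = 0.00396, called without each of 8 libraries), with a higher value under androgen in VCaP and a lower one in LNCaP. TRPV6 differed by log2 -1.42 (SE 0.44, adjusted p = 0.0388), a call lost without 6 of the 8 libraries, that is all but VCaP androgen replicate 1 and VCaP stripped replicate 2.

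The androgen effect on TRPM8 was not shown to differ between VCaP and LNCaP (log2 -0.79, SE 0.84, adjusted p = 0.615), nor between either line and MDAPCa2a (log2 1.86, SE 0.80, adjusted p = 0.161 for VCaP and log2 2.66, SE 0.86, adjusted p = 0.154 for LNCaP). The effect of ACP in stripped medium was called as different for 0 of 8 members between LNCaP and VCaP (0.127% of genes; 1 unadjusted, 0 by DESeq2) and between LNCaP and MDAPCa2a (0.358% of genes; 1 unadjusted, 0 by DESeq2). For TRPM8 these differences were log2 2.46 (SE 1.09) and 1.85 (SE 1.05).

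A wider list of 67 calcium and phosphate genes in 8 roles, without the members, set them in context. Between 44 and 50 of the 67 were tested within a line. None was called for the surface in RWPE, VCaP or MDAPCa2a, for stripped medium in VCaP or MDAPCa2a, or for androgen in MDAPCa2a. By edgeR's unadjusted p under 0.05 these comparisons held 0 to 13 genes of the list, and by DESeq2 0 to 3. In LNCaP 3 of 45 rose on ACP in stripped medium and none fell (6.12% of all genes called), and 1 rose and 6 fell on ACP in control medium (12.6%). With androgen against stripped medium 4 rose and 1 fell of 45 in LNCaP (7.73% of all genes), and 6 rose and 6 fell of 50 in VCaP (17.5%), with medians of log2 -0.04 and 0.01 over the genes tested. Against control medium 6 rose and 5 fell in LNCaP (15.1% of all genes), 2 rose and 3 fell in VCaP (5.99%), and 4 rose and 6 fell of 47 in RWPE (19.1%).

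The largest rise in LNCaP was KL, which encodes klotho, a co-receptor for the phosphate hormone FGF23. Its CPM was 0.205 and 0.408 on plastic in stripped medium, 4.30 and 4.73 on ACP in stripped medium and 14.7 and 12.5 on ACP with androgen, beside 1.54 and 1.61 on ACP in control medium and 2.05 and 1.39 on plastic in control medium. On ACP in stripped medium it was higher than on plastic by log2 4.02 (SE 0.38, adjusted p = 3.02e-04), and the interaction of surface and medium was log2 4.05 (SE 0.49, adjusted p = 0.00469), lost without plastic stripped replicate 1. In stripped against control medium KL was lower on plastic (log2 -2.55, adjusted p = 0.00233, lost without stripped replicate 1), as TRPM8 was. On ACP it was higher (log2 1.5, adjusted p = 0.0155, lost without 3 of 4 libraries), where TRPM8 was lower. ANKH encodes a pyrophosphate transporter that limits mineral deposition. It was the 1 gene of the list with a called difference of the ACP effect in stripped medium between LNCaP and each bone line. The difference was log2 2.13 against VCaP (adjusted p = 0.00535) and 1.74 against MDAPCa2a (adjusted p = 0.00821). In stripped medium LNCaP had 68.5 and 58.8 CPM of ANKH on plastic and 250.9 and 226.7 on ACP. The call against VCaP was lost without VCaP ACP stripped replicate 2. That against MDAPCa2a was lost without LNCaP plastic stripped replicate 2. The VCaP effect rests on 1 plastic library, which could not be left out. The MDAPCa2a plastic carried a protein coating, which cannot be told apart from the surface.

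In VCaP the largest fall with androgen was in ATP2B2, a pump of the same family as ATP2B4. It had 7.51 and 4.14 CPM in stripped medium and 0.649 and 0.307 with androgen (log2 -3.59, SE 0.54, adjusted p = 0.00367, called without each of 4 libraries), while ATP2B4 rose in the same libraries. The largest rise, RYR3 (log2 2.35, adjusted p = 0.0498), was lost without any 1 of the 4 libraries. FGFR1, a receptor that klotho pairs with, had 142 and 76.2 CPM with androgen in VCaP against 20.1 and 37.5 in stripped medium (log2 1.92, SE 0.40, adjusted p = 0.0121, lost without androgen replicate 1 or stripped replicate 1) and fell with androgen in LNCaP, from 11.4 and 11.1 CPM in stripped medium to 4.08 and 6.92 (log2 -1.05, adjusted p = 0.0247, lost without 3 of 4 libraries). The difference of these effects between the lines, in the fit of all libraries, was log2 2.96 (SE 0.47, adjusted p = 4.46e-04) and was called without each of 8 libraries.

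**Figure D5:**
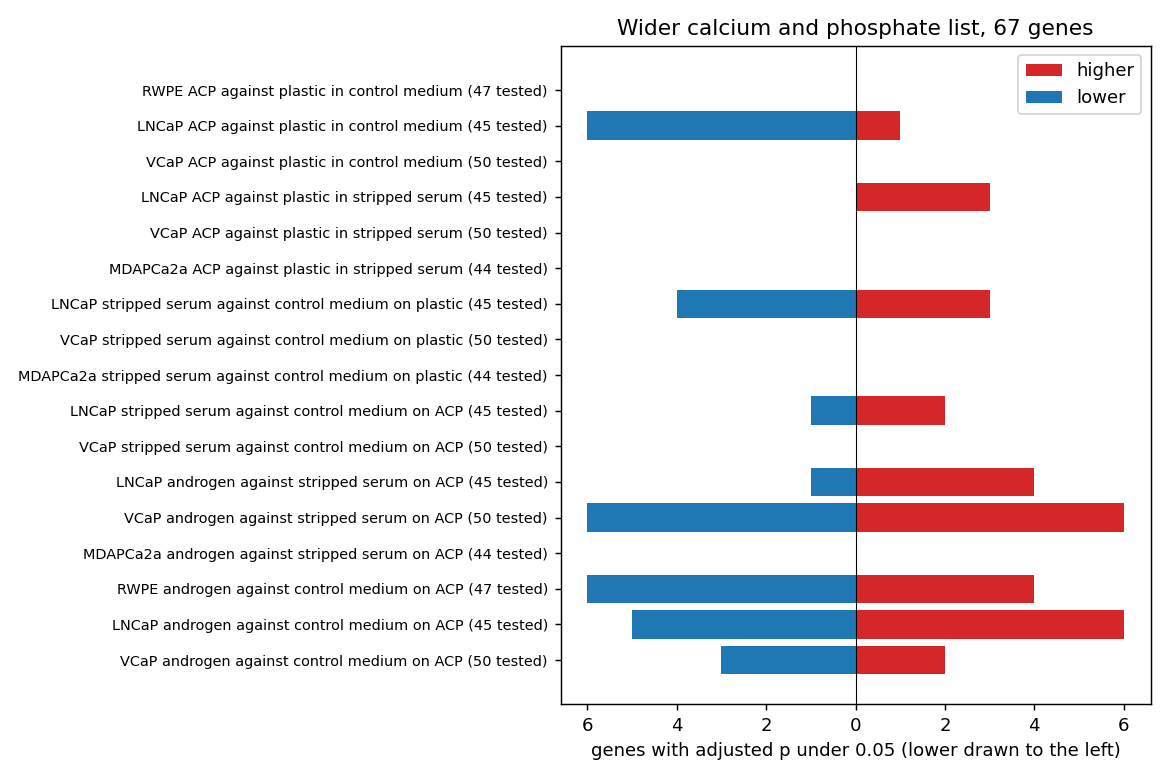
Number of genes of the wider list of 67 called higher (right) or lower (left) in each within-line comparison, with the number tested in brackets. Counts reach 6 in a direction, and 8 of the 17 comparisons have none.

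Across the 17 group means of log2 CPM, which share cell line as their main axis, the genes with the pattern most like each member were found by Pearson's r as a description. For TRPV6 these were ARFGEF3 (0.992), RPH3AL (0.989) and ARHGAP6 (0.988), for TRPM8 EPDR1 (0.975), TMEM135 (0.973) and CYP2J2 (0.971), and for ATP2B4 TPST2 (0.927), HAS3 (0.925) and ISG15 (0.921). STC2 was followed most closely by SARS (0.95), CARS (0.946) and CHAC1 (0.938), and STC1 by SFMBT1 (0.949). The genes nearest to SLC20A1, SLC20A2 and XPR1 were PPM1G (0.927), SPINT2 (0.895) and ZFP36L1 (0.943). Among the members, STC2 and XPR1 had the highest r (0.862) and TRPM8 and ATP2B4 the lowest (-0.756), with 17 groups of 4 lines behind each value.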

How the data were processed

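RNA from 34 samples of 4 established prostate lines was made into poly(A)-selected libraries, per the labels' protocols. The deposited table holds raw read counts per gene, made by the authors; the submitters' processing notes name STAR, HTSeq and the genome build hg19, while versions, annotation, strand and counting settings were not given in the sources used here. The members and gene lists were chosen with earlier results of these data known. The wider list held 67 genes in 8 roles.

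Libraries were grouped by their labels. Genes passing filterByExpr (minimum count 10) were tested by edgeR 4.0.16's quasi-likelihood test in R 4.3.3 with TMM factors and Benjamini-Hochberg adjustment, 1 fit per line (residual degrees of freedom 5 in LNCaP and 4 in each other line, 13626 to 15614 genes) and 1 of all 34 libraries (17 degrees of freedom, 17323 genes) for differences between lines. The single VCaP plastic stripped library was assumed to vary like the other VCaP groups. The SE is log2 fold change over the root of F. CPM uses TMM library sizes, and patterns used log2 CPM with a prior count of 1. Exon lengths come from GENCODE 29 and upstream sequences from RefSeq GRCh38.p14, for bases only; no coordinates of the files were used. Floors (3 counts over a group's libraries) cover counting error only. Totals of 15.4 to 44.8 M reads set the precision for low genes.

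Genes of the wider list were named from the largest called rise and fall per comparison, of which only some, picked with their values known, are printed, and, for each member, the genes with the highest r over the group means. The test script was tested on simulated data. Alternatives were DESeq2 1.42.0, no low-count filter, RLE size factors in edgeR, the replicate number as a block, and leaving out each library. The summed level of 1 marker list is not reported here.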

Additional observations from a re-analysis of the deposited data

Results flagged for a closer look

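Each of these is a difference of an effect between lines, or between media, with its own test in the fits above (edgeR, adjusted over all genes). For the androgen effect on ACP, VCaP exceeded LNCaP by log2 1.61 for SLC20A2 and by 2.89 for ATP2B4, while TRPV6 was lower in VCaP at -1.42. The ATP2B4 effect in VCaP also exceeded that in MDAPCa2a by 2.75.

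In the wider list, FGFR1 differed by 2.96 between VCaP and LNCaP. ATP2B2 differed by -7.18 (adjusted p = 0.0484), a fitted value that rests on LNCaP libraries with 0 CPM in stripped medium and is no bound; it was called without 2 of 8 libraries. KL differed by 3.77 between LNCaP and MDAPCa2a (adjusted p = 0.0119, called without 3 of 8 libraries) and by 3.88 between VCaP and MDAPCa2a (adjusted p = 0.00683, lost without MDAPCa2a stripped replicate 1). KL counts were low on ACP in MDAPCa2a, with 41 and 15 reads in stripped medium and 9 and 5 with androgen. VCaP had 5 and 11 reads in stripped medium and 18 and 35 with androgen. ALPL differed by -5.05 between VCaP and MDAPCa2a (adjusted p = 0.0183, lost without 3 of 8 libraries), also a fitted value and no bound, since MDAPCa2a had 0 and 1 reads in stripped medium and 2 and 5 with androgen. The interaction of surface and medium in LNCaP was 4.05 for KL. Its plastic control libraries were labelled continuous culture and its other libraries day 4, so the surface effect was not measured alike in both media. The ACP effect on ANKH in stripped medium differed by 2.13 between LNCaP and VCaP and by 1.74 between LNCaP and MDAPCa2a. VCaP had 1 plastic library in stripped medium, and the MDAPCa2a plastic carried a protein coating.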

How the results depend on the processing

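Of 683 alternative values for the 81 member differences called, 617 kept the call and 66 lost it, and none changed direction. Losses came from leaving out 1 library in 57 of 359 values, from the replicate block in 6 of 81, from RLE factors in 2, from DESeq2 in 1 and from no low-count filter in 0. Of 1692 values for the 194 uncalled differences, 62 became called and 114 changed sign. Low counts limit TRPM8 in RWPE and in LNCaP on plastic in stripped medium, and CASR everywhere.

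For alternatives other than DESeq2, moves of at most 1.5-fold between counts above 0 may be left out of these lists. With DESeq2 the number of members called moved to 1 for RWPE ACP against plastic, 2 for LNCaP ACP against plastic in stripped medium, 1 and 2 for VCaP stripping on plastic and on ACP, 3 and 4 for androgen against stripped in LNCaP and VCaP, 2 for VCaP androgen against control and 1 for the LNCaP interaction. It also moved to 3 for LNCaP stripping on plastic and to 6 for VCaP against MDAPCa2a on plastic. With no low-count filter it was 2 for LNCaP ACP against plastic in stripped medium, 2 and 2 for VCaP stripping on plastic and ACP, 1 for MDAPCa2a stripping, 3 and 5 for androgen against stripped in LNCaP and VCaP, 2 for VCaP androgen against control, 1 for the LNCaP interaction, and 1 and 2 for the androgen differences LNCaP minus MDAPCa2a and VCaP minus MDAPCa2a. With RLE factors it was 2 for LNCaP androgen against stripped. The cause was not tested.

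Same-numbered libraries shared little of their deviation from the group mean. Of 25 pairs of groups, 6 had a correlation of same-numbered deviations over 0.1 (-0.234 to 0.207). Low correlations cannot show that the libraries were unpaired, and the main fits used no pairing. With the replicate block the number called was 1 for RWPE ACP against plastic, 1 for VCaP stripping on ACP, 2 for RWPE and 2 for VCaP androgen against control, 2 for MDAPCa2a against LNCaP on plastic, and 1 and 2 for the androgen differences LNCaP minus MDAPCa2a and VCaP minus MDAPCa2a.

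Leaving out 1 library gave 0 to 2 members called for LNCaP ACP against plastic in control medium, 0 to 1 in stripped medium, 0 to 1 for VCaP stripping on plastic, 0 to 3 for LNCaP stripping on ACP, 1 to 2 for androgen against stripped in LNCaP and in VCaP, 0 to 3 for RWPE and 1 to 4 for LNCaP androgen against control, 2 to 3 for MDAPCa2a against LNCaP on plastic, 1 to 4 for VCaP and 1 to 3 for MDAPCa2a against LNCaP on ACP with androgen, and 0 to 1 and 1 to 2 for the androgen differences LNCaP minus MDAPCa2a and VCaP minus MDAPCa2a.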
